A study of Mus musculus with 10 samples.

Results

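Fibro-adipogenic progenitors, the PDGFRα-positive connective tissue cells of skeletal muscle, were followed here through 10 marker genes, chosen by symbol from 21956 genes in the deposited table: Pdgfra, Ly6a, Dcn, Lum, Dpt, Smoc2, Pi16, Cd55, Mfap5 and Clec3b. Each symbol matched 1 gene, and 10 of 10 passed the filter on low counts, as did 13404 genes in all. Poly(A) RNA came from the gastrocnemius, the large calf muscle, of mice labelled WT, in 10 samples: 5 carry the label Sham and 5 the label HLI. The abbreviation HLI is read as hindlimb ischaemia, the loss of blood supply to the leg that a sham operation leaves out; the labels do not spell it out and give no strain, sex, age or time after surgery. Because no label says whether each sample was its own animal, p-values speak of the spread among these libraries alone, and that spread may be technical.

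Fibro-adipogenic progenitors lie between muscle fibres and around vessels. After injury they are known to multiply, lay down matrix, signal to muscle stem cells and later shrink in number, and they can turn into fat cells or fibroblasts. Single-cell studies of connective tissue commonly distinguish cells close to vessels and fascia, marked by Pi16, Cd55, Mfap5 and Clec3b, from cells within the tissue, marked by Lum and Smoc2, while Pdgfra, Dcn and Dpt mark most of them. In bulk muscle RNA a lower level of a marker can mean fewer of these cells or less of the transcript in each, and these cannot be told apart.

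The estimated counts behind the markers ran from 888 for Cd55 in HLI replicate 1 to 30129 for Dcn in Sham replicate 4, in libraries of 16556385 to 22136299 counts. Muscle fibre transcripts, 12 of 12 detected, summed to between 131020 and 167690 TPM (a share of all transcripts, corrected for gene length) in Sham and between 82612 and 139880 TPM in HLI, with the lowest sum in HLI replicate 3. Myh3, the embryonic myosin gene of newly formed fibres, set 1 library of each group against its label: it stood at 164 CPM (counts scaled to library size) in Sham replicate 1 against 3.97 to 5.63 CPM in the other Sham libraries, and at 7.71 CPM in HLI replicate 1 against at least 79.95 CPM in the other HLI libraries. All libraries were kept under their labels.

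On levels per gene length, Dcn, which encodes decorin, a small proteoglycan that binds collagen fibrils, was the highest marker in 10 of 10 libraries, at 1397 ± 77.0 TPM in Sham and 1441 ± 393 TPM in HLI (SD, n = 5). Ly6a, Dpt, Smoc2, Clec3b, Lum and Mfap5 followed with means over all libraries of 278, 231, 193, 181, 159 and 130.1 TPM. Neighbours in this middle group were not ordered beyond their spread: Ly6a exceeded Dpt in 7 of 10 libraries, Dpt exceeded Smoc2 in 6, Smoc2 exceeded Clec3b in 7, and Clec3b exceeded Lum in 8. Mfap5 lay above Pi16 in 10 of 10 libraries, by at least 0.029 on the log2 scale. Pi16 at 76.7 TPM, Cd55 at 62.8 TPM and Pdgfra at 43.0 TPM were the lowest. Lum ranked 6 or 7 among the markers in 5 of 5 Sham libraries and 2 in HLI replicate 3, and Smoc2 ranked between 2, in Sham replicate 5, and 7, in HLI replicate 3.

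**Figure D1:**
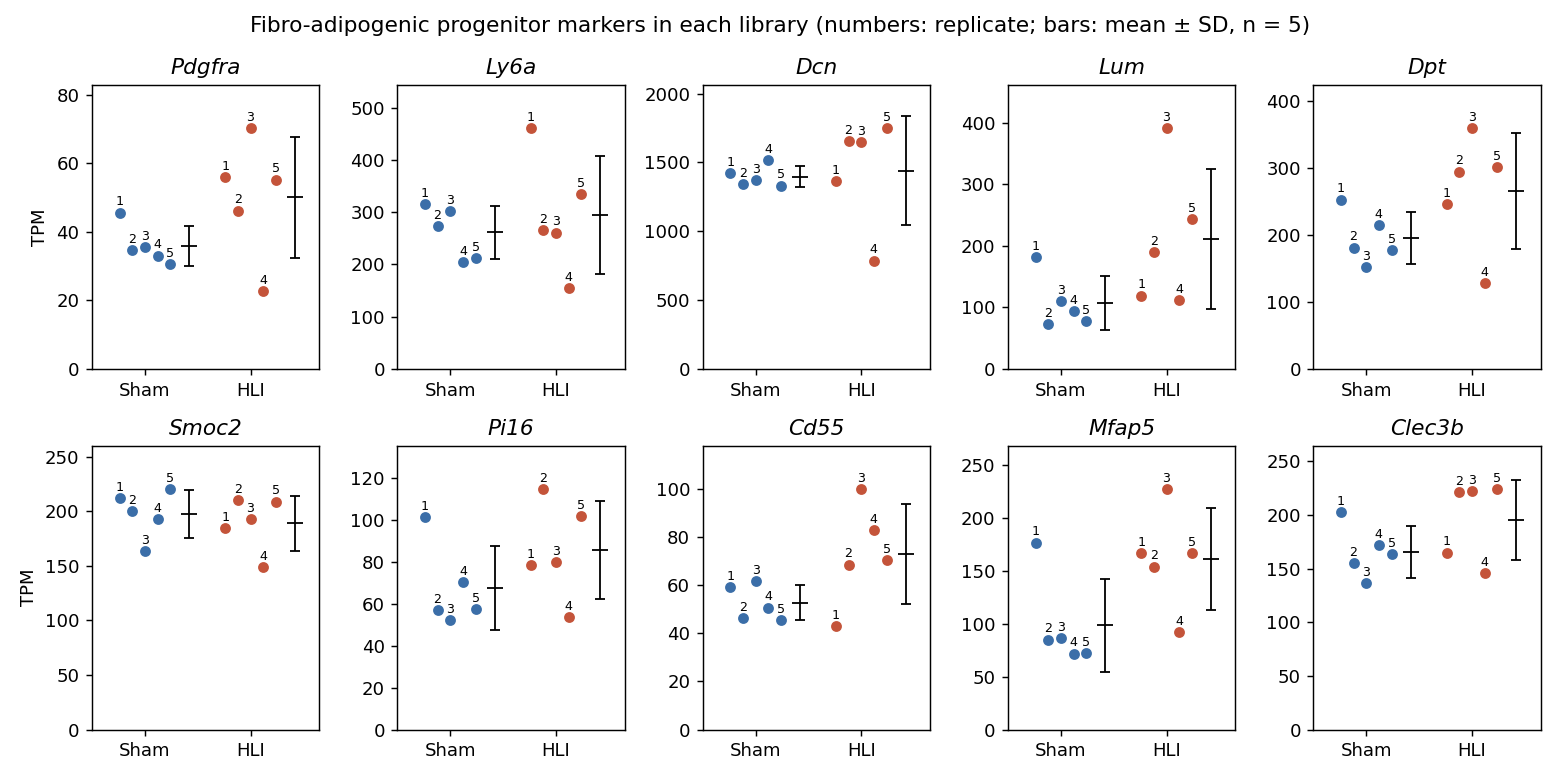
TPM of the 10 markers in each library, with Sham in blue, HLI in red, numbers for replicates and bars for mean ± SD (n = 5). In 9 of the 10 panels HLI replicate 4 stands below the HLI mean, whereas Cd55 at 82.9 TPM stands above it.

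Between the groups 0 of 10 markers passed the edgeR quasi-likelihood test at a Benjamini-Hochberg adjusted p under 0.05, and the share called among all 13404 genes was 0%. At an unadjusted p under 0.05 Lum and Mfap5 were higher in HLI and no marker was lower, against 10.7% of all genes higher and 6.15% lower. Single libraries moved this count of 2, and the number over all genes moved too. The count was 0 when Sham replicate 2, 4 or 5 or HLI replicate 3 or 5 was left out. It was 4 when HLI replicate 4 was left out. Over all genes 2262 had an edgeR unadjusted p under 0.05. In the settings with 0 markers, as ordered here, 1173, 1401, 1188, 1160 and 1568 did, and 4181 of 13522 without HLI replicate 4. Where the count stayed 2 the genes could differ: Lum and Smoc2, the latter lower in HLI, without Sham replicate 3 or HLI replicate 2. Without HLI replicate 1 they were Lum and Cd55. DESeq2 likewise called 0 of the 10, with Lum, Mfap5 and Smoc2 at an unadjusted p under 0.05, and limma on log2 TPM called 0. Log2 fold changes lay above 0 in 7 of 10 markers and in 53.8% of all genes, with a median of 0.22 for the markers and 0.029 for all genes. The median of the markers was 0.11 with Sham replicate 3 left out and 0.12 with HLI replicate 2 left out. Groups without overlap were found in 0 of 10 markers, against 0.776% of all genes with every HLI library above every Sham library and 0.873% with every one below.

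**Figure D2:**
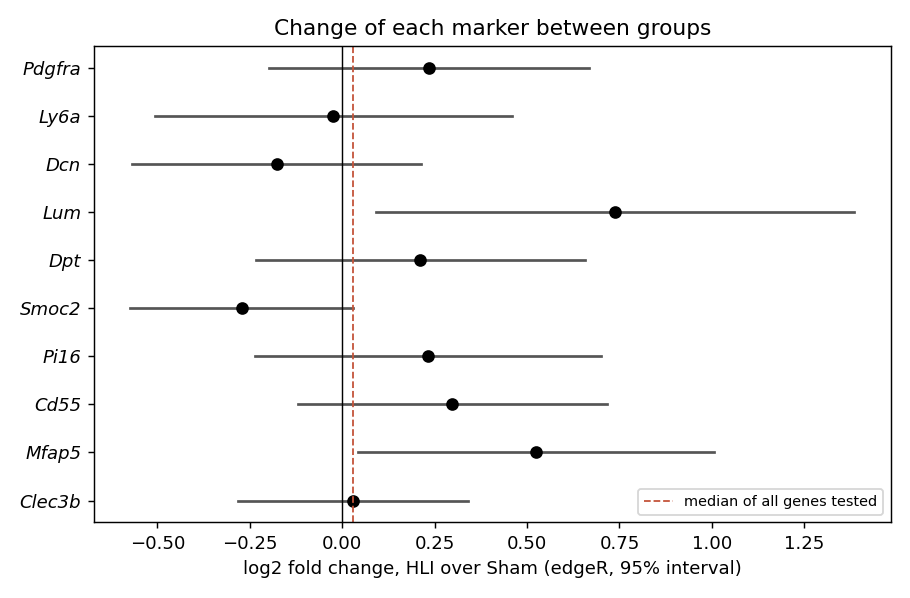
Log2 fold change of HLI over Sham for each marker (points) with its 95% interval from the edgeR fit (lines), and the median of all genes tested (dashed). Lum and Mfap5 have intervals above 0 before adjustment, and Smoc2 and Dcn have the lowest values.

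RefSeq promoters on GRCm38.p6 were at hand for 4 of the 10 markers. The 250 bases before the start are shown for Pdgfra and Dpt, which had similar patterns over libraries, and for Cd55, which had another. Pi16, whose window is not shown, had a Pearson correlation of log2 CPM of 0.79 with Dpt and 0.52 with Pdgfra. Whether a motif goes with a pattern was not tested. Capitals mark every match, on either strand, to the 6 motifs searched. The C/EBP motif was spelled TTGCNNAA and the GC box was spelled GGGCGG. For the TATA box the search used TATAAA, for AP-1 it used TGANTCA, for TEAD it used GGAATG, and the CCAAT box was searched by its name's own letters. The motifs do not overlap in the windows shown.
Pdgfra chr5:75152001-75152250, plus strand: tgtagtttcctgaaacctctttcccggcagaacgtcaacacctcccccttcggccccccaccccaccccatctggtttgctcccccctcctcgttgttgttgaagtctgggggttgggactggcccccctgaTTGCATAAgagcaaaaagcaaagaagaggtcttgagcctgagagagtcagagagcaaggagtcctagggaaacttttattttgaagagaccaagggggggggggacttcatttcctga
Dpt chr1:164796413-164796662, plus strand: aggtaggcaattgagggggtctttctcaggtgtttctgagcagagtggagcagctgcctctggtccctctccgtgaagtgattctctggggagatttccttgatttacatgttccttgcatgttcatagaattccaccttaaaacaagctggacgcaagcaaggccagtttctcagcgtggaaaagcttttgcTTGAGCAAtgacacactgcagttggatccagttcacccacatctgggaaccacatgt
Cd55 chr1:130462745-130462994, minus strand: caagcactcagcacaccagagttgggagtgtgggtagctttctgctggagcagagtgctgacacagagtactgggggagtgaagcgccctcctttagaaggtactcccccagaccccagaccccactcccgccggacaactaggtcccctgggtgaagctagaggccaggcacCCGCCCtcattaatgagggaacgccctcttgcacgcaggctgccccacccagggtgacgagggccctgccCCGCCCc
The capitals in Pdgfra are 1 match to TTGCNNAA as printed, and those in Dpt are 1 match to it read on the other strand. Of 32851 promoter windows of the same length 9.56% hold this motif on either strand. The capitals in Cd55 are 2 matches to GGGCGG read on the other strand, a motif that 32.7% hold. The Cd55 window had 64.0% G and C, the Pdgfra window 54.4% and the Dpt window 48.8%, against a median of 52.4% over all windows. No match to the other motifs lay in these 3 windows. The Pi16 window held 1 match to the CCAAT box and none to the other motifs, the C/EBP motif included. Of all windows 12.4% hold the TATA box, 6.75% the AP-1 motif, 12.6% the TEAD motif and 33.8% the CCAAT box. A match is a run of letters and not a measured binding site, and the build is another than the mm8 that the submitters' notes name.

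Among the surface proteins that define these cells, Pdgfra (ENSMUSG00000029231), which encodes the receptor for PDGF ligands, stood at 160.03, 132, 129, 137 and 118 CPM in Sham replicates 1 to 5. HLI replicates 1 to 5 held 181, 159, 193, 83.1 and 179.6 CPM. HLI replicates 1, 3 and 5 thus lay above every Sham library and HLI replicate 4 below every one. The log2 fold change was 0.24 (SE 0.20, edgeR adjusted p = 0.49, exact two-sided permutation p = 0.52), with a 95% interval of 0.872 to 1.59 for the fold. Without HLI replicate 4 it was 0.39 (edgeR adjusted p = 0.082). In that fit 4181 genes had an unadjusted p under 0.05, against 2262 with all libraries, so adjusted p was not lower for this marker alone. Ly6a (ENSMUSG00000075602) encodes Sca-1, a membrane-anchored protein that endothelial cells also carry. Its Sham libraries held 152, 143, 151, 118 and 118 CPM and its HLI libraries 208, 129, 99.1, 81.6 and 153 CPM, in replicate order. The HLI values spread to both sides of the Sham values, with HLI replicate 1 highest and HLI replicate 4 lowest of all libraries. The log2 fold change of Ly6a was -0.024 (SE 0.22, edgeR adjusted p = 0.96), with a 95% interval of 0.704 to 1.37 for the fold, and its sign changed with the scaling and with single libraries, to 0.10 without HLI replicate 4 and -0.24 without HLI replicate 1. How the authors' counting treated reads shared with near-identical Ly6 genes cannot be read from these sources, and the Ly6a value is uncertain in that respect.

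Decorin and lumican, related proteoglycans of collagen fibrils, had unlike values over the libraries. Dcn (ENSMUSG00000019929) stood at 1363, 1389.8 and 1348 CPM in Sham replicates 1 to 3 and at 1724 and 1460.02 CPM in Sham replicates 4 and 5, and at 1208, 1581, 1237, 835 and 1579 CPM in HLI replicates 1 to 5. In CPM HLI replicates 1, 3 and 4 lay below every Sham library. The order depended on the unit. In TPM Sham ran from 1331 to 1519, HLI replicate 4 at 787 lay below it and HLI replicate 1 at 1363 within it. HLI replicate 3, at 1650 TPM, lay above every Sham library, as did HLI replicates 2 and 5. The log2 fold change was -0.18 (SE 0.18, edgeR adjusted p = 0.57, exact permutation p = 0.31). Without HLI replicate 4 it was -0.069, and on TPM without further scaling -0.0086, a difference of -0.19 from the all-gene median on that scale. Lum (ENSMUSG00000036446) stood at 243, 106, 151, 149 and 119.6 CPM in Sham and at 147, 252, 409, 166 and 306 CPM in HLI. HLI replicates 2, 3 and 5 lay above every Sham library, HLI replicates 1 and 4 fell inside the range of Sham, and Sham replicate 1 was the highest Sham library. HLI differed from Sham on the log2 scale by 0.74 (SE 0.30, edgeR unadjusted p = 0.029, adjusted p = 0.29, exact permutation p = 0.071), the largest of the 10, with a 95% interval of 1.07 to 2.61 for the fold. Leaving out HLI replicate 3 gave 0.51 and leaving out Sham replicate 1 gave 0.96, with edgeR adjusted p of 0.57 and 0.17. Leaving out HLI replicate 1 gave 0.88 and leaving out HLI replicate 4 gave 0.85, with adjusted p of 0.27 and 0.093. The latter is the fit in which 4181 genes had an unadjusted p under 0.05.

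The ratio of both proteoglycans within a library does not depend on how libraries are scaled. Decorin transcripts exceeded lumican transcripts 7.82, 18.3, 12.5, 16.1 and 17.0 times in Sham replicates 1 to 5, on the TPM scale. In HLI replicates 1 to 5 they exceeded them 11.4, 8.73, 4.22, 7.02 and 7.18 times. The mean was 14.3 ± 4.24 in Sham and 7.72 ± 2.64 in HLI (SD, n = 5), and the groups overlapped through Sham replicate 1 alone, whose ratio of 7.82 lay below those of HLI replicates 1 and 2. The other Sham libraries lay at 12.5 or more and the HLI libraries at 11.4 or less. This ratio was formed after the values of both genes were seen and is given without a test.

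Dpt (ENSMUSG00000026574) encodes dermatopontin, a small matrix protein that binds decorin. It stood at 237, 184, 147, 239 and 190.5 CPM in Sham and at 214, 276, 265, 134 and 267 CPM in HLI, so that HLI replicates 2, 3 and 5 were above every Sham library and HLI replicate 4 was below every one. Its log2 fold change was 0.21 (SE 0.20, edgeR adjusted p = 0.55) and moved to 0.34 when HLI replicate 4 was left out and to 0.11 when Sham replicate 3 was. Smoc2 (ENSMUSG00000023886), which encodes a calcium-binding matricellular protein of the SPARC family, varied least among libraries in TPM, by 1.48-fold from lowest to highest. In log2 CPM relative to the mean over libraries Clec3b varied less, from -0.36 to 0.29, against -0.37 to 0.38 for Smoc2. The Sham libraries of Smoc2 held 326, 334, 259, 352 and 389 CPM and its HLI libraries 262, 323, 232, 254 and 304 CPM. No HLI library reached the Sham median of 334 CPM, although 3 of 5 lay within the Sham range. The log2 fold change was -0.27 (SE 0.14, edgeR unadjusted p = 0.073, adjusted p = 0.32, exact permutation p = 0.063), with a 95% interval of 0.672 to 1.02 for the fold. On TPM without further scaling it was -0.069, while the all-gene median there was 0.19 and the difference from it -0.25.

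The markers of the cells close to vessels and fascia were not alike either. Pi16 (ENSMUSG00000024011), which encodes a secreted protein of the CAP family, stood at 193, 113, 92.9, 139.8 and 120.2 CPM in Sham and at 136, 206, 129.7, 115 and 187 CPM in HLI. Only HLI replicate 2 lay outside the Sham range, whose upper end was Sham replicate 1. HLI differed from Sham on the log2 scale by 0.23 (SE 0.21, edgeR adjusted p = 0.53), and it moved to 0.41 when Sham replicate 1 was left out, to 0.27 when HLI replicate 1 was, to 0.12 when Sham replicate 3 was, and to 0.11 when HLI replicate 2 was. Clec3b (ENSMUSG00000025784), which encodes the plasminogen-binding protein tetranectin, averaged 97.4 ± 14.3 CPM over Sham against 99.4 ± 16.3 CPM over HLI (SD, n = 5). Its libraries ran from 75.8 to 109.8 CPM in Sham and from 82.4 to 119 CPM in HLI, and the 95% interval of its fold was 0.823 to 1.27.

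Mfap5 (ENSMUSG00000030116), which encodes a glycoprotein of the microfibrils that carry elastin, stood at 134, 69.3, 66.7, 64.8 and 66.8 CPM in Sham and at 122, 120.9, 138, 79.5 and 118 CPM in HLI. Apart from Sham replicate 1 the Sham libraries lay below every HLI library, and 5 of 5 HLI libraries exceeded the Sham median. Its log2 fold change was 0.52 (SE 0.22, edgeR unadjusted p = 0.035, adjusted p = 0.29, exact permutation p = 0.040), with a 95% interval of 1.03 to 2.01 for the fold. Leaving out Sham replicate 1 gave 0.79 and leaving out HLI replicate 1 gave 0.50, with edgeR adjusted p of 0.16 and 0.295. Leaving out HLI replicate 4 gave 0.62, with an adjusted p of 0.092, in the fit where 4181 genes had an unadjusted p under 0.05.

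Cd55 (ENSMUSG00000026399) encodes decay-accelerating factor, which protects cells from complement. Its Sham libraries held 71.3, 61.8, 79.2, 74.7 and 62.2 CPM and its HLI libraries 48.9, 84.4, 99.8, 115 and 80.7 CPM. No HLI library lay within the Sham range: HLI replicates 2 to 5 were above it and HLI replicate 1 was below it. The log2 fold change was 0.30 (SE 0.19, edgeR adjusted p = 0.39, exact permutation p = 0.30), and it moved to 0.44 when HLI replicate 1 was left out and to 0.16 when HLI replicate 4 was. The paralogue Cd55b was listed at 0 in every library, and how shared reads were assigned is not given in the sources used here.

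Read by library, the markers did not share 1 order. Relative to its mean over the 10 libraries, the average marker stood at 0.29 in HLI replicate 5, 0.27 in HLI replicate 2, 0.21 in Sham replicate 1 and 0.18 in HLI replicate 3 (log2 CPM), and at -0.33 in HLI replicate 4 and -0.24 in Sham replicate 3. HLI replicate 5 held 10 of 10 markers above their means, and HLI replicate 2 and Sham replicate 1 held 9 of 10. In HLI replicate 3 the markers parted, with Lum at 1.12, Mfap5 at 0.56 and Pdgfra at 0.43 above their means, and Ly6a at -0.41 and Smoc2 at -0.37. In CPM HLI replicate 4 held the lowest value of Pdgfra, Ly6a, Dcn and Dpt and the highest value of Cd55. In TPM it was also lowest in Smoc2, at 148 TPM, but Cd55 was highest in HLI replicate 3, at 99.9 against 82.9 TPM. HLI replicate 1 held the highest value of Ly6a and the lowest of Cd55.

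**Figure D3:**
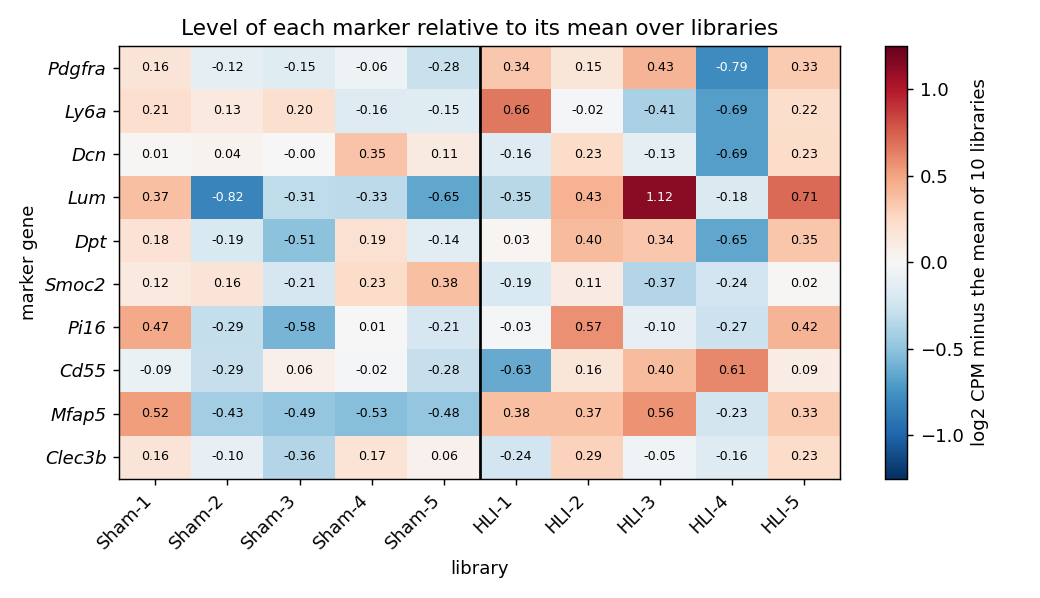
Log2 CPM of each marker minus its mean over the 10 libraries, with Sham libraries left and HLI libraries right of the line and the value in each cell. HLI replicate 4 is low in Pdgfra, Ly6a, Dcn and Dpt and high in Cd55, at 0.61.

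Over the 10 libraries 34 of the 45 pairs of markers had a positive Pearson correlation of log2 CPM and 11 a negative one, with a median r of 0.31; libraries share their scaling factor in every pair. After adjustment over the 45 pairs 0 passed 0.05, by r or by rho (permutation test, 100000 resamples, two-sided). Pi16 and Clec3b had r = 0.85 (permutation p = 0.0023, adjusted p = 0.053) and rho = 0.82 (permutation p = 0.0061, adjusted p = 0.075), and r = 0.78 without the 2 libraries farthest from the median of Pi16. Both mark the cells close to vessels, but other pairs of that subset had lower r. Pi16 with Mfap5 had 0.695 and Mfap5 with Clec3b 0.31, while Cd55 had 0.0054, 0.085 and 0.11 with Pi16, Mfap5 and Clec3b. Dpt, a marker of most of the cells, had 0.79 with Pi16 and 0.75 with Clec3b. Lum and Smoc2, markers of the cells within the tissue, had r = -0.43. Pdgfra and Dpt had r = 0.83 (permutation p = 0.0024, adjusted p = 0.053) and rho = 0.71 (permutation p = 0.028, adjusted p = 0.16), and r = 0.66 without HLI replicates 3 and 4. Lum and Mfap5 had r = 0.80 (permutation p = 0.0089, adjusted p = 0.080) and rho = 0.59 (permutation p = 0.081, adjusted p = 0.28), and r = 0.75 without HLI replicates 3 and 5.

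Ly6a and Cd55 formed the most negative pair, with r = -0.81 (permutation p = 0.0054, adjusted p = 0.080) and rho = -0.59 (permutation p = 0.081, adjusted p = 0.28). That relation rests largely on HLI replicates 1 and 4, without which r was -0.39. Dcn and Lum had r = 0.047 (permutation p = 0.90, adjusted p = 0.94) and rho = -0.018 (permutation p = 0.97, adjusted p = 0.99), and r = 0.071 without HLI replicate 4 and Sham replicate 4. With each group centred on its own mean, r was 0.88 for Pi16 and Clec3b, 0.82 for Pdgfra and Dpt, 0.69 for Lum and Mfap5, -0.83 for Ly6a and Cd55 and 0.36 for Dcn and Lum.

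**Figure D4:**
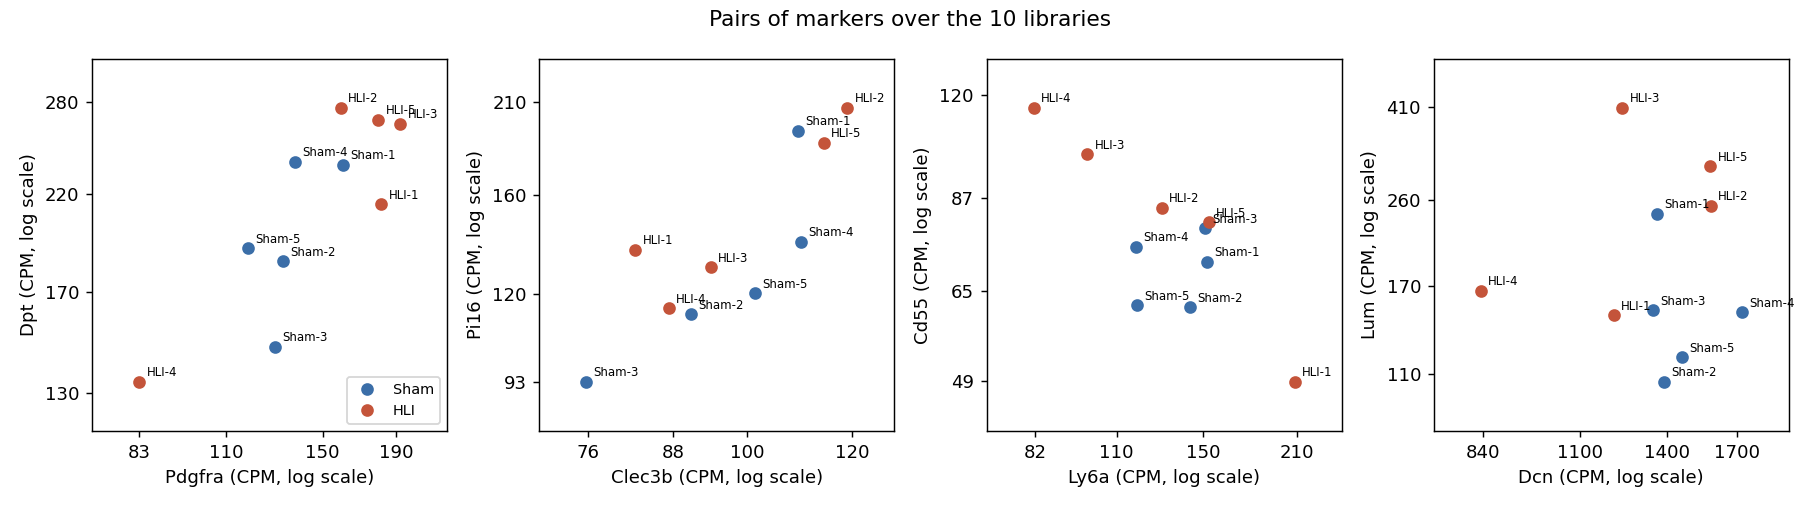
CPM of 4 pairs of markers in the 10 libraries on log2 axes, with Sham in blue and HLI in red. The points of Pdgfra with Dpt and of Clec3b with Pi16 rise together, those of Ly6a with Cd55 fall between HLI replicate 4 and HLI replicate 1, and those of Dcn with Lum show no order (r = 0.047).

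Genes with the most similar pattern to the average of the 10 markers were sought among 8827 other genes with a mean of at least 10 CPM, by Pearson's r of log2 CPM over 10 libraries. They were C1s1, a complement protease gene (r = 0.97, rho = 0.94), Dnaaf9 (r = 0.97, rho = 0.95), Sash1 (r = 0.97, rho = 0.96), Parn (r = 0.96, rho = 0.93) and Ebf2, which encodes a transcription factor (r = 0.96, rho = 0.93). For single markers the nearest genes were Cfb for Pdgfra, Adam15 for Ly6a, Ntrk2 for Dcn, Tcf12 for Lum, Gpc6 for Dpt, Atf7 for Smoc2, Cd34 for Pi16, Zscan26 for Cd55, Tmem176b for Mfap5 and Scara5 for Clec3b. Their r lay between 0.94 for Ntrk2 and 0.99 for Zscan26. The genes were picked for the highest r of 8827, so no p is given.

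Other genes of these cells were followed in separate lists. Of 20 further genes of the cells close to vessels, 0 passed the edgeR test and 12 lay above 0, with a median log2 fold change of 0.040. The sign of that median rested on single libraries, from -0.044 with HLI replicate 5 left out to 0.14 with HLI replicate 3 left out. Dpp4, which encodes the surface peptidase that marks this subset, averaged 24.2 ± 4.92 CPM over Sham against 24.7 ± 6.83 CPM over HLI (SD, n = 5). In that list Fn1, which encodes fibronectin, had a log2 fold change of 0.56 with an SE of 0.32 (edgeR adjusted p = 0.34), Creb5 one of 0.45 (SE 0.23) and Igfbp6 one of -0.34 (SE 0.21). Of 19 measured genes of the cells within the tissue 0 passed and 11 lay above 0, with a median of 0.17, which was 0.060 with Sham replicate 3 left out, 0.082 with Sham replicate 4 or HLI replicate 3 left out and 0.10 with HLI replicate 2 left out. Col6a3, a collagen VI chain gene, stood at 424 ± 154 and 689 ± 287 CPM in Sham and HLI. Hsd11b1, which encodes a glucocorticoid-activating enzyme, stood at 25.9 ± 4.07 and 17.7 ± 5.32 CPM, and Gsn, which encodes gelsolin, at 2719 ± 433 and 1779.7 ± 760.01 CPM.

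Among genes of the injury-activated state, 19 were measured. Of these 0 passed the edgeR test over all genes, 17 lay above 0, and the median log2 fold change was 0.76 against 0.029 for all genes. Leaving out HLI replicate 3 brought that median to 0.44, while leaving out Sham replicate 1 or HLI replicate 1 gave 0.79 and 0.74. Postn, which encodes periostin, stood at 565, 122, 265, 162 and 120.2 CPM in Sham replicates 1 to 5 and at 565, 529, 4520, 452 and 645 CPM in HLI replicates 1 to 5. Cthrc1, a secreted protein gene of activated fibroblasts, averaged 7.44 ± 5.96 CPM over Sham against 30.2 ± 27.7 CPM over HLI, and Lrrc15 1.35 ± 1.003 against 10.2 ± 15.3 CPM (SD, n = 5). Their adjusted p was 0.29 for each. HLI replicate 3 held the highest value in 11 of the 19 and HLI replicate 1 in 7.

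The families of the markers were mixed. Among 12 measured small leucine-rich proteoglycans, the family of Dcn and Lum, 0 passed, 4 lay above 0 and 8 below, and the median log2 fold change was -0.14, or -0.037 with HLI replicate 4 left out, -0.23 with HLI replicate 2 left out and -0.22 with HLI replicate 5 left out. Aspn, which encodes asporin, averaged 53.9 ± 26.9 CPM over Sham against 174 ± 197 CPM over HLI, where replicate 3 held 524 CPM. Bgn, which encodes biglycan, had a log2 fold change of 0.65 (SE 0.29), and Chad, a cartilage and tendon gene, one of -1.13 (SE 0.59). Among 16 genes of microfibrils and elastic fibres, the family of Mfap5, 0 passed and 13 lay above 0, with a median of 0.37 that single libraries moved to 0.16 (HLI replicate 3 left out) and 0.57 (Sham replicate 1 left out). Mfap2, a close relative of Mfap5, had a log2 fold change of 1.202 (SE 0.46), Ltbp2 one of 1.24 (SE 0.51) and Efemp2 one of 0.59 (SE 0.25), each with an edgeR adjusted p of 0.29.

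PDGF ligands and receptors, the pathway of Pdgfra, included 7 measured genes, of which 0 passed and 6 lay above 0. Pdgfc, which encodes a ligand of the PDGF receptor α, stood at 9.89, 5.47, 6.86, 7.72 and 5.17 CPM in Sham and at 15.8, 10.4, 14.4, 7.55 and 11.4 CPM in HLI. HLI replicates 1, 2, 3 and 5 lay above every Sham library and HLI replicate 4 within the Sham range, and the change of 0.76 on the log2 scale (SE 0.23) had an edgeR unadjusted p of 0.0063 and an adjusted p of 0.29. Pdgfrb, which encodes the PDGF receptor β, had a log2 fold change of 0.13 (SE 0.16), Pdgfd one of 0.31 (SE 0.23) and Pdgfrl one of 0.44 (SE 0.32).

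Markers of other cell types moved between libraries beside the 10 markers, and their part in the values above was not tested. Tenocyte markers, 10 of 10 detected, summed to 1054 to 1414 TPM in Sham and to 276 TPM in HLI replicate 4, against 1230.4 to 1479 TPM in the other HLI libraries. HLI replicate 4 held the lowest value in 8 of these 10 genes and in 8 of 9 adipocyte markers, whose sum there was 783 TPM against at least 1237 TPM in every other library. It also held the lowest value in 10 of the 20 further genes of cells close to vessels and in 8 of the 19 of cells within the tissue. HLI replicate 3 came next, although its sums hide this. Relative to gene means, the average tenocyte marker stood at -2.01 in HLI replicate 4 and -0.47 in HLI replicate 3 (log2 CPM). The average adipocyte marker stood at -1.86 and -0.76. In HLI replicate 3 Fmod (213 CPM) and Chad (10.1 CPM) lay below every Sham library, but Thbs4 (1036 CPM) and Tnc (366 CPM) above every one. Of the tenocyte list, Fmod, Kera, Chad and Tnc also stand in the lists of proteoglycans or activated cells. Of the 10 tenocyte markers 3 lay above 0 and 7 below, with a median log2 fold change of -0.48. Tnc was among those above 0, at 1.48 (SE 0.57). In HLI replicate 3, where Lum was highest, 11 of 12 muscle fibre genes were lowest, and Acta1, the skeletal actin gene, was lower in every HLI library than in every Sham library without passing the test. Ckm and Tnnt3, genes of muscle creatine kinase and fast troponin T, stood at -0.59 (SE 0.25) and -0.58 (SE 0.25) on the log2 scale.

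**Figure D5:**
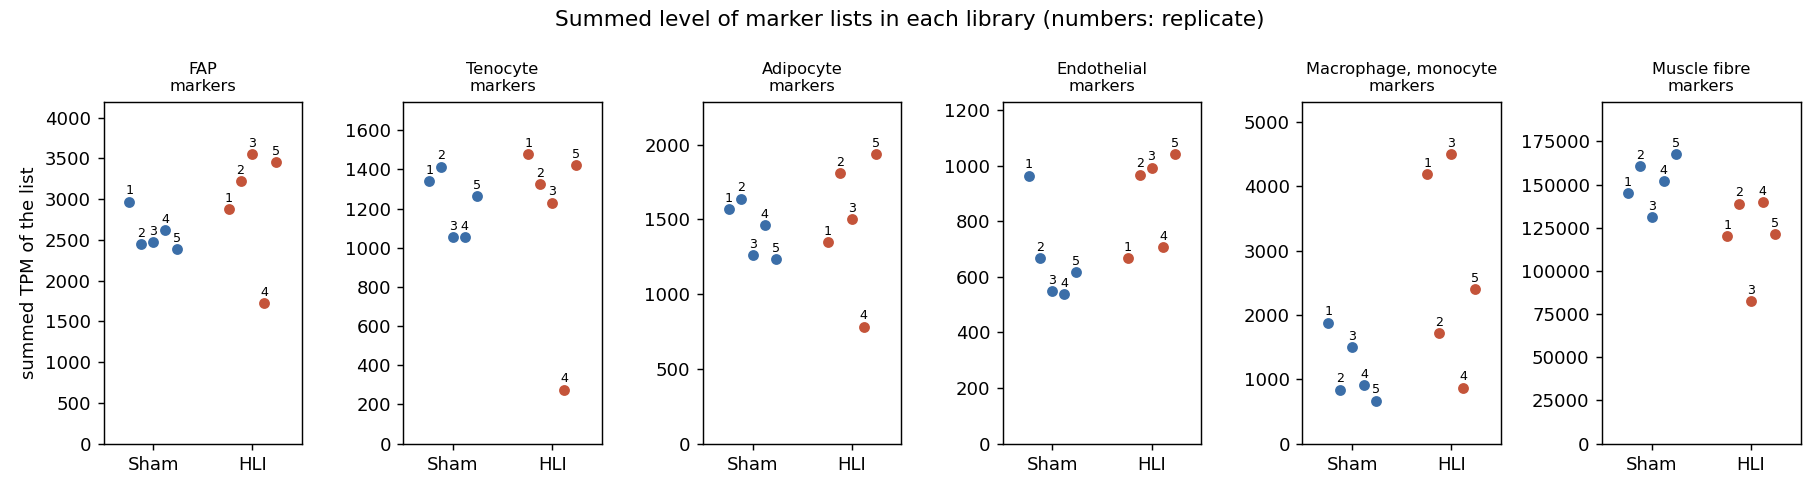
Summed TPM of 6 marker lists in each library, with Sham in blue, HLI in red and numbers for replicates. HLI replicate 4 is the lowest library for the 10 progenitor markers (1729 TPM), for tenocyte markers (276 TPM) and for adipocyte markers (783 TPM), but not for endothelial markers (708 TPM).

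Macrophage and monocyte markers, 10 of 10 above 0 with a median log2 fold change of 0.91, summed to 669 to 1882 TPM in Sham and 872 to 4500 TPM in HLI. Adgre1 and Mpeg1 had the smallest p of the list, at 1.09 (SE 0.39) and 1.78 (SE 0.59) on the log2 scale. Endothelial markers, which share Ly6a as a surface protein, summed to 538 to 964 TPM in Sham and 667 to 1042 TPM in HLI. Both lists are summed here on TPM without further scaling, where 75.8% of all genes had a log2 fold change above 0. In the edgeR fit 8 of the 10 endothelial markers lay above 0 and 2, Kdr and Tek, below. Their median was 0.23, against 0.029 for all genes. Cldn5 and Erg had the highest values, at 0.53 (SE 0.20) and 0.52 (SE 0.23). Of 10 pericyte and smooth muscle markers 5 lay above 0 and 5 below, with Myh11 at -0.53 (SE 0.19) and Mcam at 0.41 (SE 0.18). Perineurial and Schwann cell markers had a median of -0.28, or -0.086 with Sham replicate 5 left out, with Ncmap at -0.48 (SE 0.43) and Moxd1 at -0.46 (SE 0.32).

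The remaining lists held few transcripts or wide spreads. Of 9 muscle stem cell markers 5 lay above 0 and 4 below. Myf5 averaged 1.53 ± 0.261 CPM over Sham against 3.66 ± 2.05 CPM over HLI with no overlap of the groups, whereas Vcam1 had a log2 fold change of 0.61 (SE 0.26). Of 10 lymphocyte markers 5 were measured, among them Lck at 1.97 (SE 0.62) and Nkg7 at 2.17 (SE 0.75). Neutrophil markers, 6 of 8 measured, lay above 0 in 2 and below 0 in 4, with Csf3r at 0.41 (SE 0.81) and Cxcr2 at -0.64 (SE 1.29). Mesothelial markers were near 0: the 8 of them summed to at most 8.87 TPM in any library, with Msln at 0.14 (SE 0.45) and Gpm6a at -0.19 (SE 0.38). None of the genes named in these lists passed the edgeR test after adjustment over all genes.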

How the data were processed

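Per the labels' protocols, the libraries were paired-end, from poly(A) RNA, and run on a NovaSeq; the series text names another company and RNA reagent, so the extraction is uncertain. HISAT2 2.0, Bowtie 0.12.2 and mm8 appear in the submitters' processing notes without roles. For the counting tool, annotation and strand the entry is: not given in the sources used here. The authors deposited 1 table with an estimated count (93.4% whole numbers, not normalized) and a TPM value per gene and sample, per the file headers.

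Estimated counts were rounded and tested with edgeR 4.0.16 in R 4.3.3 (quasi-likelihood test, TMM scaling, filterByExpr at a minimal count of 10 and a minimal total of 15, 13404 genes, no covariate, Benjamini-Hochberg adjusted p under 0.05). Standard errors are the fold change over the root of the F statistic, and intervals use its degrees of freedom. CPM use TMM-scaled libraries, and log2 CPM a prior count of 2. Exact permutation tests of single genes used all 252 assignments (smallest possible p 0.0079). Alternatives were DESeq2 1.42.0, its size factors in edgeR, no filter, the replicate number as a block, each library left out, and limma 3.58.1 on log2(TPM + 1), also scaled by median of ratios, and log2(TPM + 0.1). The test was checked on simulated data, drawn with the spread fitted to these libraries. It recovered 59% of 100 genes changed 2-fold and 94% of 100 changed 4-fold, with 4.97% false calls. Changes under 2-fold, the size estimated for every marker, were not simulated.

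The 10 markers and the lists were chosen with earlier results of these data known. Named beside the markers were, from each list, the 3 genes (2 for other cell types) of smallest p whose mean reached 1 CPM, near paralogues and genes of similar pattern; Dpp4, Pdgfrb, Myh3 and the overlapping tenocyte genes were added after values were seen.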

Additional observations from a re-analysis of the deposited data

Results flagged for a closer look

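Mfap5 in Sham replicate 1 stood at 134 CPM against 64.8 to 69.3 CPM in the other Sham libraries, so that its gap to the nearest library took 0.934 of the range of the group. Of 20 groups of 5 libraries, 10 markers in 2 conditions, it was the only one past Dixon's 95% limit of 0.71; chance flags about 1 in 20 groups.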

How the results depend on the processing

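The count of 0 markers past the edgeR threshold was the same under 17 of 17 alternatives, each library left out in turn included. Over all genes DESeq2 called 45 and the other alternatives 0. Of 170 values of single markers under an alternative, 161 kept the direction and the side of the threshold, and 9 changed sign, all of Ly6a and Clec3b. Ly6a, at -0.024, was 0.11 on log2(TPM + 1) and on log2(TPM + 0.1), and ran from -0.24 without HLI replicate 1 to 0.10 without HLI replicate 4; leaving out Sham replicate 1, Sham replicate 3 or HLI replicate 3 gave 0.018, 0.0035 and 0.068. Clec3b, at 0.029, ran from -0.061 without Sham replicate 3 to 0.089 without HLI replicate 1, and leaving out HLI replicate 2 or HLI replicate 5 gave -0.044 and -0.025. The cause was not tested. On TPM without further scaling the median of all genes was 0.19, and relative to it Lum was 0.71, Mfap5 0.55 and Ly6a -0.075. Same-numbered libraries correlated between -0.0090 and 0.28 in their deviations from the group means. Of 5 Sham libraries 2 correlated best with the HLI library of their own number. So few values cannot decide whether the replicate numbers pair the libraries. With the replicate number as a block 0 genes were called, and 2986 genes had an edgeR unadjusted p under 0.05, against 2262 without it. In that fit Lum stood at 0.71 (edgeR unadjusted p = 0.055, adjusted p = 0.23). Mfap5 stood at 0.57 (edgeR unadjusted p = 0.012, adjusted p = 0.16). In the difference within libraries between the mean log2 TPM of Pi16, Cd55, Mfap5 and Clec3b and that of Lum and Smoc2, Sham stood at -0.73 ± 0.061 and HLI at -0.71 ± 0.17 (SD, n = 5). The gap of 0.021 ran from -0.019 to 0.082 as single libraries were left out. Lum and Smoc2, averaged here, had log2 fold changes of unlike sign, 0.74 and -0.27. Their log2 TPM difference, Lum minus Smoc2, was -0.95 ± 0.55 in Sham and 0.013 ± 0.65 in HLI (SD, n = 5). A small gap between these means thus does not show that the single markers kept their balance.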

Other observations

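Among neighbours of the markers by family, Ly6c1, a relative of Ly6a found on endothelial cells and monocytes, averaged 149 ± 23.4 CPM over Sham against 138 ± 38.0 CPM over HLI (SD, n = 5), and Ly6e 209 ± 44.2 against 286 ± 58.5 CPM (edgeR adjusted p = 0.29). Of 9 measured complement regulators and Ly6 genes 0 passed the edgeR test, 4 lay above 0 and 5 below. Cd59a, a further membrane-bound complement inhibitor beside Cd55, had a log2 fold change of -0.21 (SE 0.20). Of the adipocyte markers, Lep averaged 8.94 ± 5.26 CPM over Sham against 4.42 ± 4.39 CPM over HLI, and Retn 13.2 ± 2.35 against 8.17 ± 5.45 CPM (SD, n = 5).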
